A study of Homo sapiens with 6 samples.

Results

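The genes described here are 60 genes of chromosome 21, from NRIP1 at the centromere side of the long arm to MCM3AP near its end, in RNA of MiaPaCa2 clones with and without ZEB1. They were chosen from the 26334 symbols of the deposited count table by their symbol and chromosome, with the ZEB1-KO over WT comparison of these same libraries in view. The values that chose them are therefore given as a description, and the calls of tests fitted over the whole table are listed for them without being read as evidence. Of the 60 genes, 59 passed the filter on low counts, as did 13659 genes of the whole table. The other one, C21orf91, had 0 counts in all 6 libraries, where a floor of 3 counts is worth 0.0687 to 0.150 CPM (counts-per-million, with TMM-scaled library sizes). Its exons share bases with another counted gene on the same strand.

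MiaPaCa2 is an established human cell line from a pancreatic ductal adenocarcinoma. The series compared 3 ZEB1-KO clones, in which CRISPR-Cas9 had been used to delete ZEB1, with 3 WT clones that kept it. All clones were grown in medium with 10% serum and had been sorted for GFP after electroporation with a plasmid that encodes Cas9 and GFP. Each library came from 2000 lysed cells of 1 clone, so differences of clone, culture and library preparation cannot be told apart. Nothing in the labels says whether cultures or library preparations were shared. ZEB1 is a zinc-finger repressor of epithelial genes.

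Chromosome 21 is the smallest human autosome, and an extra copy of it causes Down syndrome. Its long arm carries genes of many unrelated functions, among them a cluster of interferon and cytokine receptor chains, transcription factors such as RUNX1 and ETS2, the amyloid precursor gene APP, splicing factors and enzymes of purine and sulphur amino acid metabolism. Cultured tumour lines often carry gained or lost chromosomes, and clones of 1 line can differ in them. DNA copy number was not analysed here.

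Library totals were 18909305, 36798770 and 32149376 counts in ZEB1-KO replicates 1, 2 and 3, against 42876693, 36290148 and 26242238 counts in WT replicates 1, 2 and 3. ZEB1 itself was at 6.10 ± 4.67 CPM in ZEB1-KO clones and 32.9 ± 1.54 CPM in WT clones (SD, n = 3 each), with every ZEB1-KO clone below every WT clone. The 5 ductal epithelium markers, led by KRT8, KRT18 and KRT19, summed to between 4068 and 5287 CPM in ZEB1-KO clones and between 2154 and 3194 CPM in WT clones. Of the same list, KRT7 reached only 0.529 CPM in ZEB1-KO clones and 0.573 CPM in WT clones, and MUC1 9.34 and 4.17 CPM. The 5 acinar and islet markers summed to at most 0.150 CPM in ZEB1-KO clones and 0.0810 CPM in WT clones, with AMY2A, INS and GCG at 0 in all 6 libraries. The 5 blood markers reached at most 1.93 CPM in ZEB1-KO clones and 3.89 CPM in WT clones, with CD3E and HBB at 0. The 4 endothelial markers reached 3.14 CPM in ZEB1-KO clones and 0.939 CPM in WT clones. The 5 fibroblast markers reached 59.97 CPM in ZEB1-KO clones and 18.4 CPM in WT clones, of which COL3A1 made up 59.7 and 18.4 CPM in the highest ZEB1-KO and WT clones, with DCN and LUM at 0. The part of these lists in the chromosome 21 values was not tested. In bulk RNA, fewer cells that express a gene and less RNA per cell cannot be told apart.

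The chromosome 21 genes stood out in 1 WT library more than they separated the groups. For each gene and library, log2(CPM + 0.5) was set against the mean of the WT libraries other than itself, and the median over all other genes was subtracted from the median over the 59 genes. This relative level was -0.23, -0.37 and -0.27 in ZEB1-KO replicates 1, 2 and 3, against 0.65, -0.41 and -0.21 in WT replicates 1, 2 and 3. WT replicate 1 alone lay above the other genes, by 1.57-fold, and WT replicates 2 and 3 lay below them, as did the ZEB1-KO clones. A WT library is set against 2 WT libraries and a ZEB1-KO library against 3. WT replicate 1 thus weighs more in the reference of WT replicates 2 and 3, and levels of the groups are not strictly alike. Since WT replicate 1 is part of what the other libraries are compared with, the levels were also set against WT replicates 2 and 3 alone, a choice made after seeing the data. They were then -0.026, -0.12 and -0.048 in ZEB1-KO replicates 1, 2 and 3, against 0.65 in WT replicate 1. On this scale WT replicates 2 and 3 are each set against the other, so that their values of -0.097 and 0.097 mirror each other and give only the distance between them. The genes were thus lower in ZEB1-KO clones than the mean of the WT clones, as their label says, but their levels in ZEB1-KO clones were closer to the mean of WT replicates 2 and 3 than WT replicate 1 was.

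**Figure D1:**
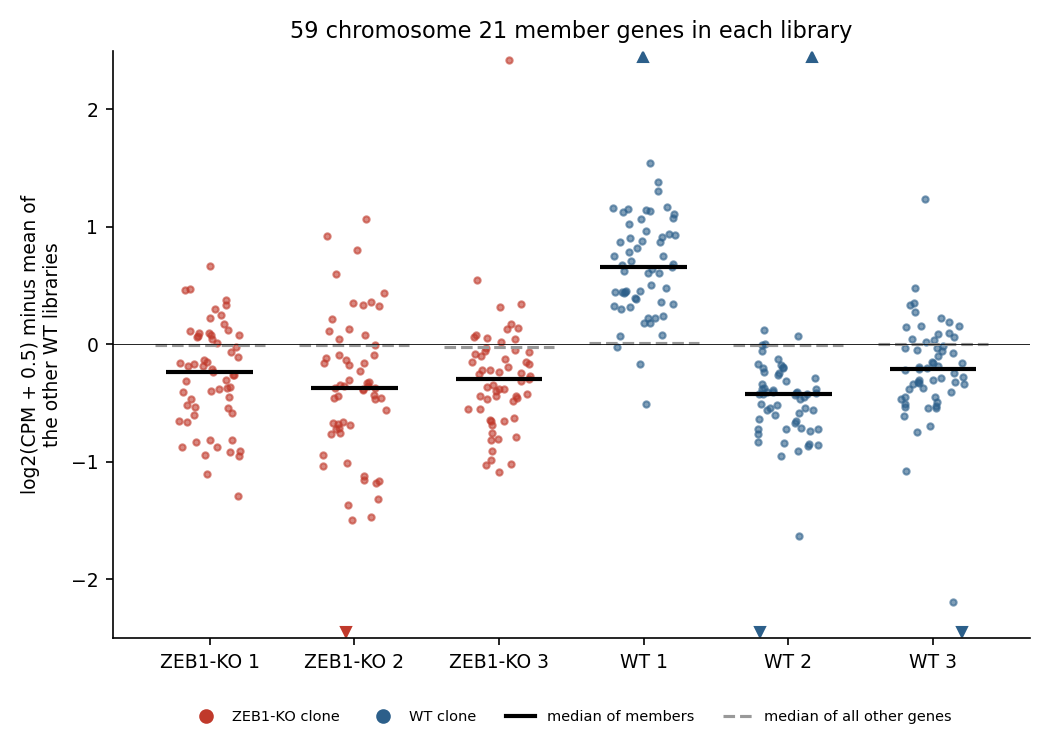
Points are the 59 tested chromosome 21 genes in each of the 6 libraries, as log2(CPM + 0.5) minus the mean of the other WT libraries (for a ZEB1-KO clone, of all 3). Black lines are medians of these genes, dashed grey lines medians of all other genes, and triangles mark values beyond the axis. The medians of the 3 ZEB1-KO clones and of WT replicates 2 and 3 lie below 0 and that of WT replicate 1 lies above it.

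Gene by gene, WT replicate 1 was the highest of the 6 libraries for 49 of the 59 genes (83.1%), against 14.0% of all genes tested, and it was the lowest for none of them. Its CPM was 1.57 times the mean of WT replicates 2 and 3 at the median over the 59 genes, against 0.996 times over all genes tested. It was at least 1.5 times that mean for 34 genes and at least 2 times for 14. The extremes were NRIP1, at 69.5 times, and ETS2, at 0.396 times. The 56 genes with a mean of at least 10 CPM gave a median of 1.56. Together the 60 genes took 0.545, 0.518 and 0.519% of all counts in ZEB1-KO replicates 1, 2 and 3, against 0.843, 0.457 and 0.536% in WT replicates 1, 2 and 3. WT replicate 1 was also the deepest library, at 42876693 counts. No other library reached that total, and the part of depth in its level was not tested.

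In the comparison of groups, 49 of the 59 genes had a log2 fold change below 0 (83.1%), as did 50.6% of all genes tested. The median log2 fold change, ZEB1-KO over WT, was -0.31 over the 59 genes and -0.0082 over all genes tested. The range ran from -1.88 (CBR3) to 0.65 (CHAF1B). Without WT replicate 1, 34 of the 59 genes were below 0 (57.6%), as were 48.3% of all genes, and the median was -0.068 over the 59 genes and 0.025 over all genes. On the deposited TPM scale the median over all genes itself moved to 0.23, and 31 of the 58 genes that passed its filter were below 0, as were 29.2% of all genes. Relative to all genes, the median of the chromosome 21 genes on that scale was still lower, at -0.25. Directions given for role groups and single genes are on the TMM scale and can turn on the TPM scale. This is not limited to values close to 0, since PSMG1 and PTTG1IP, both at -0.28 on the TMM scale, turned there.

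No gene of the 59 passed an adjusted p of 0.05 in edgeR's quasi-likelihood test, in which 0.0586% of all genes were called lower and 0.176% were called in either direction. ZEB1 itself, at a log2 fold change of -2.43, was not called by that test either (adjusted p 0.093). A gene without a call can thus still differ. At an unadjusted p below 0.05 there were 9 of the 59 genes, all lower, while 8.04% of all genes were lower at that level. edgeR's likelihood ratio test called 3 of them lower, SON, CRYZL1 and BRWD1, among 1.76% of all genes, and without WT replicate 1 it called SON alone, among 2.19% of all genes, with log2 fold changes of -0.95 for CRYZL1 and -0.82 for BRWD1. DESeq2 called 6 lower (SON, TTC3, CRYZL1, BRWD1, N6AMT1 and DIP2A), among 2.78% of the genes to which it gave an adjusted p. limma-voom called 0, among 0.0512% of all genes called lower. In the authors' deposited table, SON, CRYZL1 and BRWD1 were also past 0.05, among 1.92% of its genes called lower. Because the genes were proposed from this contrast, these counts describe them and are not evidence about them.

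**Figure D2:**
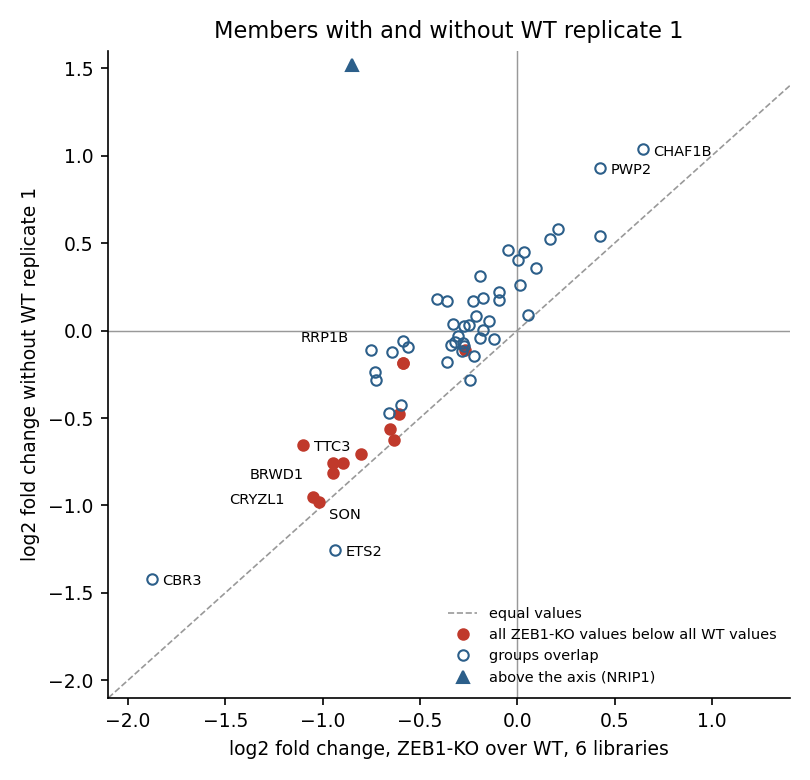
Each point is 1 of the 59 genes, with its log2 fold change (ZEB1-KO over WT) from all 6 libraries on the x axis and from the 5 libraries without WT replicate 1 on the y axis. Filled red points are the 13 genes whose ZEB1-KO values all lie below all WT values, open points are genes whose groups overlap, and the triangle is NRIP1 at 3.69, beyond the axis. Most open points lie above the dashed line of equal values, and SON and CRYZL1 lie on or near it at about -1.

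A smaller set of genes was lower in every ZEB1-KO clone than in any WT clone. It held 13 of the 59 genes (22.03%, against 11.7% of all genes tested): MRPL39, N6AMT1, LTN1, BACH1, SYNJ1, TMEM50B, SON, CRYZL1, PIGP, TTC3, BRWD1, WRB and DIP2A. None of the 59 was higher in every ZEB1-KO clone, against 11.9% of all genes. Below WT replicates 2 and 3 taken alone lay these 13 genes and no other of the 59, while 19.2% of all genes did. With the scaling redone, the number was 11 of 59 without WT replicate 1, where 18.4% of all genes had no overlap in this direction, and 23 of 59 without WT replicate 2, where 14.7% had none. On the deposited TPM scale it was 5 of 58, against 4.80% of all genes, and 5 of 59 without a filter, against 4.78%. With library size alone as scaling it was 7 of 59, against 7.51%. Leaving out a library makes this separation easier for every gene, so each number is to be read against its own share.

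SON, a nuclear speckle protein that aids splicing, had 277, 220.4 and 232 CPM in ZEB1-KO clones, against 508, 481 and 489 CPM in WT clones (replicates 1, 2 and 3 in each list). All 3 ZEB1-KO values lay near one level and all 3 WT values near another, without overlap. Its log2 fold change was -1.02 ± 0.19 (SE) and -0.98 without WT replicate 1. CRYZL1, a relative of zeta-crystallin and quinone oxidoreductases, had 34.7, 23.4 and 37.3 CPM in ZEB1-KO clones, against 73.1, 59.9 and 64.8 CPM in WT clones. Here too no ZEB1-KO clone reached the lowest WT clone, and the log2 fold change was -1.05 ± 0.24 (SE). BRWD1, a reader of acetylated histones with bromodomains, had 48.7, 44.3 and 47.5 CPM in ZEB1-KO clones, against 105, 89.6 and 77.1 CPM in WT clones. The ZEB1-KO clones lay close together and the WT clones spread more widely above them, with a log2 fold change of -0.95 ± 0.20 (SE). SON has exons that overlap those of GART and DONSON on the other strand, and the libraries do not record strand, so reads of the 3 genes may be mixed.

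The promoters of these 3 genes, with that of SYNJ1, are shown as examples of genes that lay below all WT clones, SYNJ1 because its window is the only one of that set with the E-box CAGGTG, which ZEB1 binds. Windows of 250 bases before and 50 bases after the gene start come from RefSeq (GRCh38.p14), in which 51 of the 60 genes matched. They lie at chr21:33542788-33543087 on the plus strand for SON, and on the minus strand at chr21:33641692-33641991 for CRYZL1, chr21:39313583-39313882 for BRWD1 and chr21:32728345-32728644 for SYNJ1, and are written 5′ to 3′ along the gene with the E-box in capitals.
SON: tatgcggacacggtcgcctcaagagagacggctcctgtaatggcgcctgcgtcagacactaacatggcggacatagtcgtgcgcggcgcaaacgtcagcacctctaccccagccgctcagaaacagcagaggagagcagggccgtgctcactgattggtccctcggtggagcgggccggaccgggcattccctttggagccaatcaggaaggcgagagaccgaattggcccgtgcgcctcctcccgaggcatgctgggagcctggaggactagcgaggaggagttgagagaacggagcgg
CRYZL1: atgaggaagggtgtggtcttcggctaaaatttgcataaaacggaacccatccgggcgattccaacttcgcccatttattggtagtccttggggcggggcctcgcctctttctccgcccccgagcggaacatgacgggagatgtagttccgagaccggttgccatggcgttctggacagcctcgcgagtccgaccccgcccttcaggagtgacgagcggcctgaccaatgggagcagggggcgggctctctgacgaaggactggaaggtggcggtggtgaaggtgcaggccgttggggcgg
BRWD1: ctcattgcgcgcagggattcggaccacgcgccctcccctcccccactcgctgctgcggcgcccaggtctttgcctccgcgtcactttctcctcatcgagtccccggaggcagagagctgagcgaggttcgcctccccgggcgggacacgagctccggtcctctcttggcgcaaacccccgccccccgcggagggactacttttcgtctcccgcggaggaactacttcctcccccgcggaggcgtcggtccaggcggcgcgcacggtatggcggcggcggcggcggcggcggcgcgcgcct
SYNJ1: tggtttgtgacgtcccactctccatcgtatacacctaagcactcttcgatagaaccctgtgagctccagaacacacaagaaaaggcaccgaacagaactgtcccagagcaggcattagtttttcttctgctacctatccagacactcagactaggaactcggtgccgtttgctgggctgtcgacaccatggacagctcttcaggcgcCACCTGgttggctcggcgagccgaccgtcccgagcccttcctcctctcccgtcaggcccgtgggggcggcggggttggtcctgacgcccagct
Only the SYNJ1 window of these 4 holds the motif, as CACCTG, that is CAGGTG on the other strand, from base 208 of the window. GC content was 63.3% in the SON window, 62% in that of CRYZL1, 72.7% in that of BRWD1 and 58.7% in that of SYNJ1. CAGGTG on either strand occurred in 6 of the 51 windows (11.8%: C21orf91, SYNJ1, HLCS, ETS2, PDXK and MCM3AP), in 1 of the 12 windows available for the 13 genes below all WT clones (8.33%), in 18.2% of the windows of all genes tested and in 20.6% of all 27305 windows. A match is a run of letters and not a measured binding site.

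**Figure D3:**
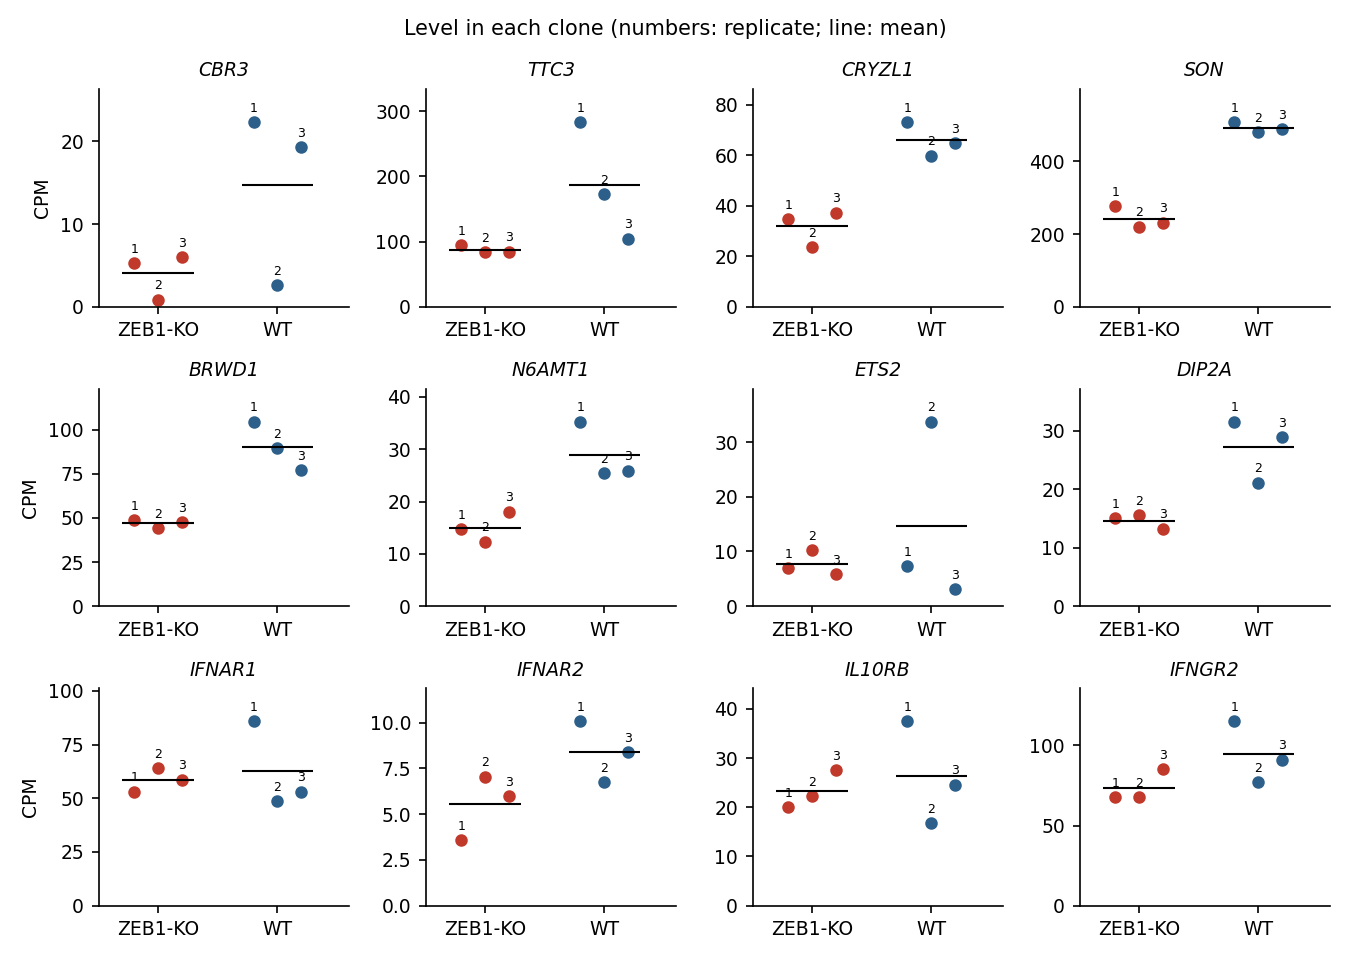
CPM of the 8 genes with the lowest log2 fold change (upper 2 panel lines) and of the 4 receptor chains (lowest line) in ZEB1-KO clones (red, left) and WT clones (blue, right), with replicate numbers at the points and a line at the mean of 3 clones. SON, CRYZL1, BRWD1, N6AMT1, DIP2A and TTC3 show no overlap between groups, while CBR3, ETS2 and the receptor chains overlap.

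The receptor chains of the interferon cluster lie side by side on the map. All 4 had a log2 fold change below 0 (median -0.27), all 4 were highest in WT replicate 1, and none had groups without overlap. IFNAR1, a chain of the type I interferon receptor, had 53.1, 63.9 and 58.6 CPM in ZEB1-KO clones, against 85.9, 48.6 and 52.9 CPM in WT clones. IFNAR2, its partner chain, had 3.59, 7.04 and 5.98 CPM in ZEB1-KO clones, against 10.1, 6.75 and 8.39 CPM in WT clones. In both genes a ZEB1-KO clone lay above a WT clone, and the log2 fold changes were -0.094 ± 0.26 and -0.60 ± 0.33 (SE). IL10RB, the chain shared by the receptors for interleukin-10 and type III interferons, had 20.01, 22.3 and 27.5 CPM in ZEB1-KO clones, against 37.5, 16.8 and 24.6 CPM in WT clones. IFNGR2, a chain of the interferon-gamma receptor, had 67.5, 67.7 and 85.2 CPM in ZEB1-KO clones, against 115, 77.2 and 91.03 CPM in WT clones. In each, WT replicate 1 was highest and the other clones were mixed, and the log2 fold changes were -0.18 ± 0.32 and -0.36 ± 0.22 (SE). Without WT replicate 1 the values were 0.22 for IFNAR1, -0.43 for IFNAR2, 0.19 for IL10RB and -0.18 for IFNGR2, with 2 of the 4 below 0. IFNAR2 has exons that overlap those of a gene on the opposite strand.

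Of 7 transcription factors and coregulators, 6 had a log2 fold change below 0 (median -0.59), 4 were highest in WT replicate 1, and 5 were below 0 without it (median -0.15). NRIP1, a corepressor of nuclear receptors, had 4.74, 0.667 and 17.2 CPM in ZEB1-KO clones, against 39.3, 1.05 and 0.0810 CPM in WT clones. It was high in WT replicate 1, moderate in ZEB1-KO replicate 3 and near 1 CPM or below in 3 clones, so that its log2 fold change of -0.85 ± 1.62 (SE) was 3.69 without that WT clone. ETS2, an ETS-family factor, had 6.98, 10.2 and 5.88 CPM in ZEB1-KO clones, against 7.28, 33.7 and 3.08 CPM in WT clones. WT replicate 2 was far above the other clones, and the log2 fold change of -0.93 ± 0.75 (SE) turned to 0.57 without that clone. BACH1, a repressor of haem-responsive genes, had 12.8, 15.1 and 15.004 CPM in ZEB1-KO clones, against 31.7, 17.03 and 15.8 CPM in WT clones. The ZEB1-KO clones lay just below the lower pair of WT clones, with -0.59 ± 0.31 (SE) and -0.18 without WT replicate 1. RUNX1, GABPA, ZBTB21 and PKNOX1 had log2 fold changes from -0.66 (ZBTB21) to 0.012 (GABPA), and their groups overlapped.

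Among 9 genes of chromatin, replication and methyltransferases, 8 had a log2 fold change below 0 (median -0.31), 8 were highest in WT replicate 1, and 5 were below 0 without it (median -0.031). N6AMT1, a methyltransferase of the translation release factor, had 14.7, 12.4 and 18.1 CPM in ZEB1-KO clones, against 35.3, 25.5 and 25.9 CPM in WT clones. No ZEB1-KO clone reached a WT clone, and the log2 fold change was -0.94 ± 0.25 (SE) and -0.76 without WT replicate 1. HMGN1, a nucleosome-binding protein, had 455, 472 and 507 CPM in ZEB1-KO clones, against 788, 496 and 529 CPM in WT clones. The level in WT replicate 1 was high and the other 5 clones lay close together, with -0.34 ± 0.23 (SE), and HMGN1 has processed pseudogenes that can share reads. CHAF1B, a subunit of the histone chaperone CAF-1, had 30.6, 46.8 and 32.5 CPM in ZEB1-KO clones, against 33.99, 14.7 and 21.5 CPM in WT clones. It was highest in ZEB1-KO replicate 2, the groups overlapped through WT replicate 1, and the log2 fold change of 0.65 ± 0.34 (SE) was the highest of the 59. MCM3AP, a factor of mRNA export, is the last gene in the map order given, whereas PRMT2 is the last in RefSeq. MCM3AP had 31.6, 41.5 and 25.8 CPM in ZEB1-KO clones, against 53.9, 24.8 and 40.8 CPM in WT clones. Its groups overlapped, with -0.27 ± 0.32 (SE) and 0.026 without WT replicate 1. MORC3, SETD4, DONSON and PRMT2 had values between -0.59 and -0.18, with WT replicate 1 highest in each.

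The 10 genes of RNA processing and ribosome production were the most mixed, with 6 below 0 (median -0.070) and 3 below 0 without WT replicate 1 (median 0.13). MRPL39, of the large subunit of the mitochondrial ribosome, had 238, 177 and 262 CPM in ZEB1-KO clones, against 394, 281 and 355 CPM in WT clones. Its ZEB1-KO clones all lay below the lowest WT clone, with -0.61 ± 0.23 (SE). MRPS6, of the small subunit, had 224, 198 and 210.2 CPM in ZEB1-KO clones, against 206, 153 and 248 CPM in WT clones. The groups overlapped fully and WT replicate 3 was highest, with 0.057 ± 0.22 (SE) and -0.097 without WT replicate 2, and its exons overlap those of SLC5A3 on the same strand. PWP2, of the complex that processes small-subunit ribosomal RNA, had 39.5, 54.4 and 29.3 CPM in ZEB1-KO clones, against 48.1, 21.6 and 21.998 CPM in WT clones. WDR4, of the enzyme that methylates guanosine in tRNA, had 21.4, 28.9 and 16.997 CPM in ZEB1-KO clones, against 18.87, 11.9 and 19.3 CPM in WT clones. In both, ZEB1-KO replicate 2 was the highest clone and WT replicate 2 the lowest, with log2 fold changes of 0.43 ± 0.37 and 0.42 ± 0.30 (SE). RRP1B, a nucleolar protein, had 49.3, 60.5 and 46.2 CPM in ZEB1-KO clones, against 149, 58.2 and 55.3 CPM in WT clones. WT replicate 1 stood apart from the other 5 clones, and its log2 fold change of -0.75 ± 0.39 (SE) was -0.11 without that clone. SCAF4, URB1, PAXBP1 and U2AF1 (the small subunit of the splicing factor U2AF) had log2 fold changes from -0.15 (SCAF4) to 0.094 (U2AF1), were highest in WT replicate 1 and overlapped between groups.

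Of 10 genes of protein folding, turnover and sorting, 9 were below 0 (median -0.28), all 10 were highest in WT replicate 1, and 6 were below 0 without it (median -0.093). CCT8, a subunit of the cytosolic chaperonin, had 862, 776 and 1061 CPM in ZEB1-KO clones, against 1409.5, 839 and 881 CPM in WT clones. The highest clone was WT replicate 1, with ZEB1-KO replicate 3 next, and the log2 fold change was -0.21 ± 0.26 (SE) and 0.082 without WT replicate 1. TTC3, a ubiquitin ligase, had 93.9, 83.6 and 84.1 CPM in ZEB1-KO clones, against 283, 172 and 105 CPM in WT clones. The ZEB1-KO clones were close together and all below the WT clones, which spread widely, with -1.10 ± 0.34 (SE) and -0.65 without WT replicate 1. WRB, a receptor for inserting tail-anchored proteins into the endoplasmic reticulum, had 133, 91.5 and 161 CPM in ZEB1-KO clones, against 222, 165 and 218 CPM in WT clones. Its groups did not overlap, the ZEB1-KO clone nearest to WT being replicate 3, with -0.65 ± 0.26 (SE), and its exons overlap those of LCA5L on the opposite strand. CSTB, an inhibitor of cathepsins, had 382, 201 and 219 CPM in ZEB1-KO clones, against 481, 264 and 261 CPM in WT clones. WT replicate 1 and ZEB1-KO replicate 1 were the high clones, with -0.33 ± 0.34 (SE) and 0.04 without WT replicate 1. PSMG1, a proteasome assembly chaperone, had 228, 194 and 213 CPM in ZEB1-KO clones, against 320.0, 232 and 218 CPM in WT clones. PTTG1IP, a securin-binding protein, had 161, 206 and 188 CPM in ZEB1-KO clones, against 268, 157 and 249 CPM in WT clones. Both overlapped between groups, with -0.28 ± 0.22 and -0.28 ± 0.25 (SE). LTN1, a ubiquitin ligase of stalled ribosomes, and TMEM50B, without overlap, had -0.59 and -0.27, and DSCR3 and SUMO3, with overlap, had -0.19 and 0.033.

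Of 9 metabolic enzymes, 8 were below 0 (median -0.41), 8 were highest in WT replicate 1, and 5 were below 0 without it (median -0.090). CBR3, a carbonyl reductase, had 5.29, 0.840 and 5.98 CPM in ZEB1-KO clones, against 22.3, 2.59 and 19.3 CPM in WT clones. WT replicates 1 and 3 were high, WT replicate 2 lay within the ZEB1-KO range, and the log2 fold change of -1.88 ± 0.86 (SE) was the lowest of the 59. Its neighbour CBR1, another carbonyl reductase, had 139, 99.2 and 155 CPM in ZEB1-KO clones, against 289.6, 107 and 127 CPM in WT clones. Only WT replicate 1 stood above all 3 ZEB1-KO clones, and the log2 fold change of -0.41 ± 0.38 (SE) was 0.18 without it. CBR3 has exons that overlap those of a gene on the opposite strand. GART, a multifunctional enzyme of purine synthesis, had 293, 292 and 263 CPM in ZEB1-KO clones, against 349.7, 167 and 216 CPM in WT clones. All ZEB1-KO clones lay above WT replicates 2 and 3 and below WT replicate 1, with 0.21 ± 0.28 (SE) and 0.58 without that clone. PIGP, of glycosylphosphatidylinositol anchor synthesis, had 38.8, 19.2 and 39.4 CPM in ZEB1-KO clones, against 49.8, 47.4 and 53.8 CPM in WT clones. It was lower in every ZEB1-KO clone, most in replicate 2, and its log2 fold change was -0.63 ± 0.29 (SE) and -0.63 without WT replicate 1. HLCS (biotin ligase), CBS (cystathionine beta-synthase), PDXK (pyridoxal kinase) and AGPAT3 (an acyltransferase) had log2 fold changes from -0.73 (PDXK) to -0.25 (CBS), with WT replicate 1 highest and overlapping groups.

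Of 9 genes of signalling, membrane traffic and the cytoskeleton, 7 were below 0 with and without WT replicate 1 (medians -0.32 and -0.091). DIP2A had 15.1, 15.6 and 13.3 CPM in ZEB1-KO clones, against 31.6, 21.1 and 28.9 CPM in WT clones. Its ZEB1-KO clones lay close together below all WT clones, with -0.89 ± 0.24 (SE) and -0.75 without WT replicate 1. SYNJ1, a phosphoinositide phosphatase of endocytosis, had 10.7, 6.79 and 9.90 CPM in ZEB1-KO clones, against 17.8, 16.4 and 13.6 CPM in WT clones. It too had no overlap, with -0.80 ± 0.27 (SE). APP, the amyloid precursor, had 34.3, 25.4 and 23.2 CPM in ZEB1-KO clones, against 30.1, 34.5 and 33.3 CPM in WT clones. The ZEB1-KO and WT clones overlapped, and WT replicate 1 was the lowest WT clone, with -0.24 ± 0.23 (SE). DYRK1A, a dual-specificity kinase, ITSN1, an endocytic scaffold, TIAM1, an activator of Rac, C2CD2, BTG3 and PCNT, a centrosome protein, had log2 fold changes from -0.73 (BTG3) to 0.17 (ITSN1), with overlapping groups. RWDD2B, which was not put in a group by role, had a log2 fold change of -0.64 and was highest in WT replicate 1. Of the 60 genes, 10 have exons that overlap another counted gene on the opposite strand and 3 on the same strand, in the annotation used (GENCODE release 29).

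Per length, the mean TPM over the 6 libraries ran from 0.613 (TIAM1) to 655 (CCT8). HMGN1 followed at 646 TPM, CSTB at 497 TPM, MRPL39 at 373 TPM, MRPS6 at 327 TPM and PSMG1 at 319 TPM. High-level genes were found both among those with overlapping groups (CCT8, HMGN1, CSTB) and among those without (MRPL39).

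Along the map, WT replicate 1 was above the other libraries in all 6 blocks of 10 genes. Its relative level was 0.70 in the block from NRIP1 to CCT8, 0.69 from BACH1 to IFNGR2, 0.41 from TMEM50B to CBR1, 0.90 from CBR3 to PSMG1, 0.52 from BRWD1 to RRP1B and 0.80 from PDXK to MCM3AP. The ZEB1-KO clones lay between -0.72 and -0.057 over the same blocks, and WT replicates 2 and 3 between -0.64 and -0.10. WT replicate 1 weighs more in the reference of these 2 WT libraries. Median log2 fold changes per block were between -0.61, in the first block, and -0.16, in the second. Without WT replicate 1 they were between -0.18 and 0.11. Next to each other on the map, GART, SON, DONSON, CRYZL1 and ITSN1 had log2 fold changes of 0.21, -1.02, -0.18, -1.05 and 0.17, so that genes with and without a separation of the groups alternated there.

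**Figure D4:**
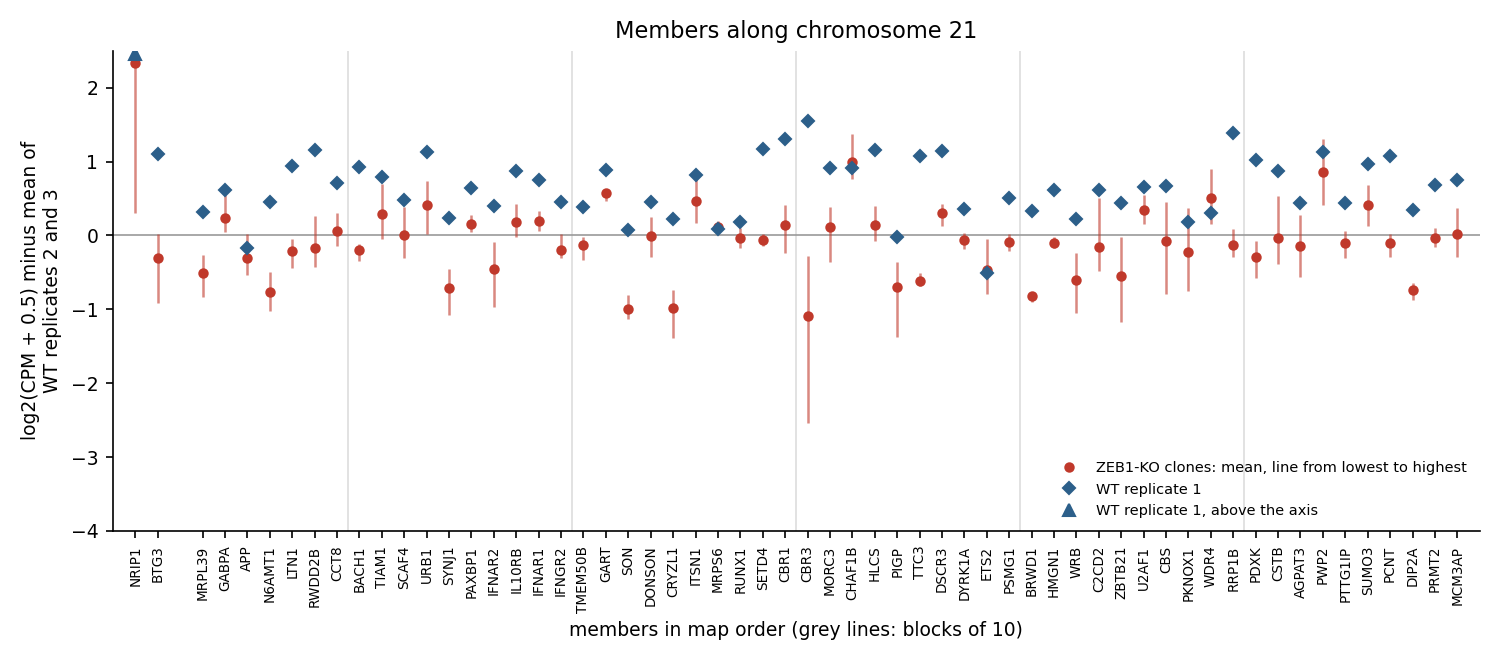
The 59 tested genes in map order, with log2(CPM + 0.5) minus the mean of WT replicates 2 and 3 on the y axis. Red points are means of the 3 ZEB1-KO clones with lines from the lowest to the highest clone, and blue diamonds are WT replicate 1. NRIP1 runs past the top of the axis, for WT replicate 1 (triangle) and for the highest ZEB1-KO clone. WT replicate 1 lies above 0 for most genes along the whole map, whereas the ZEB1-KO means lie on both sides of 0.

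The same measure was taken for each of 23 chromosomes, with RefSeq placing 13337 tested genes, 133 of them on chromosome 21. These include the 59 genes above, chosen with the comparison of groups in view. The place of chromosome 21 among the chromosomes is therefore a description and not evidence about it. Over these 133 genes the relative level was -0.29, -0.35 and -0.31 in ZEB1-KO replicates 1, 2 and 3, against 0.61, -0.40 and -0.20 in WT replicates 1, 2 and 3. Here too the references of the 2 groups differ in the weight of WT replicate 1. Over all other chromosomes and libraries it ran from -0.47 to 0.43, both in WT replicate 1, for chromosomes 6 and 10. Chromosome 21 had the lowest median log2 fold change of the 23, at -0.33, with the others between -0.18 and 0.18. For 69.2% of its genes WT replicate 1 was highest, against 4.07 to 42.2% on the other chromosomes. Without WT replicate 1 the median was -0.063, at rank 5 from the lowest, with the others ranging from -0.15 (chromosome 13) to 0.27 (chromosome 19). All ZEB1-KO values lay below all WT values for 23.3% of the chromosome 21 genes and for 6.73 to 19.1% of those on each other chromosome.

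**Figure D5:**
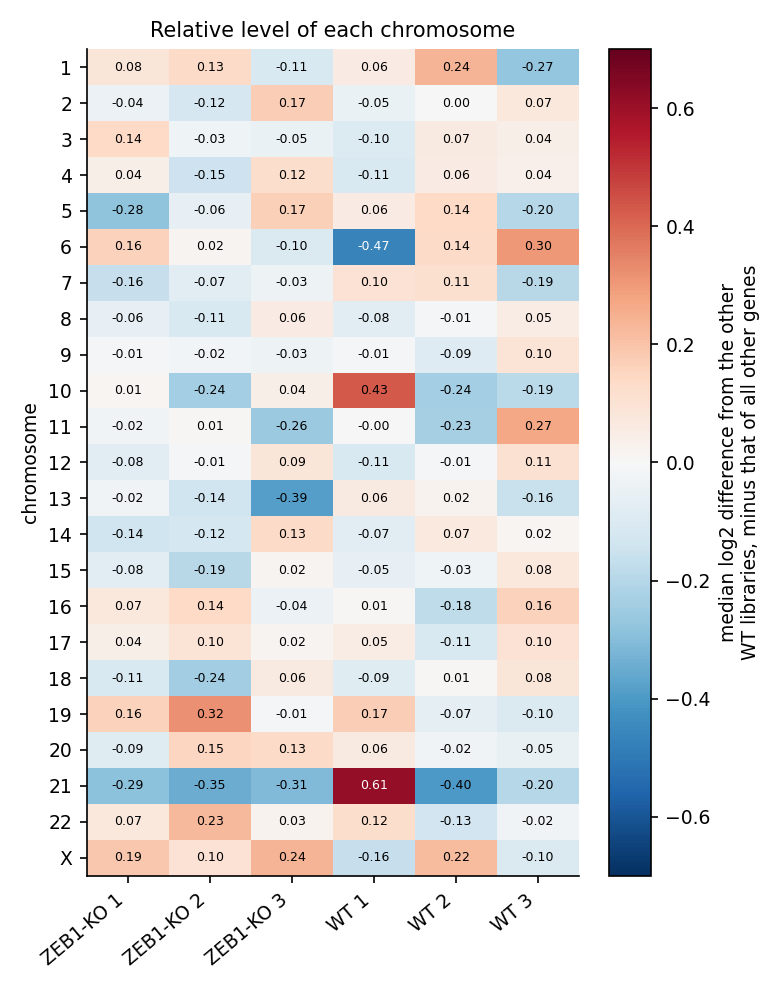
Each cell gives the median over the tested genes of 1 chromosome of log2(CPM + 0.5) minus the mean of the other WT libraries, less the same median over all other genes. Columns are the 3 ZEB1-KO clones and then the 3 WT clones, rows are chromosomes, and red is higher. Chromosome 21 in WT replicate 1, at 0.61, is the highest cell, followed by chromosome 10 in the same clone at 0.43.

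Chromosome 21 genes outside the 60 were described in the same way. Of 84 symbols listed by hand, VPS26C is a newer name of DSCR3, one of the 60, and was not counted. Of the others, 52 passed the filter, and the median log2 fold change was -0.46. Below 0 were 38 of the 52 (73.1%), against 50.6% of all genes tested, and 14 were above. All genes outside the 60 that RefSeq places on chromosome 21 gave 74 tested genes and a weaker median of -0.38. Of these 74, 55 were below 0 (74.3%), and WT replicate 1 was highest for 58.1%, against 14.0% of all genes tested. For 33 of the 52 (63.5%) WT replicate 1 was highest, and 30 of the 52 were below 0 without it (median -0.051). edgeR's quasi-likelihood test called none of them, and 14 of the 52 (26.9%) had an unadjusted p below 0.05, 12 of them lower, against 17.7% of all genes in either direction and 8.04% lower. The likelihood ratio test called 2, both lower, among 1.76% of all genes. ATP5J, of the mitochondrial ATP synthase, had 399, 273 and 345 CPM in ZEB1-KO clones, against 913, 829.9 and 795 CPM in WT clones. ATP5O, of the same enzyme, had 1055, 686 and 947 CPM in ZEB1-KO clones, against 2214, 1539.7 and 1528 CPM in WT clones. Neither overlapped between groups, and the log2 fold changes were -1.32 and -0.97, while ATP5J shares exon bases with GABPA on the opposite strand. SOD1, the cytosolic superoxide dismutase, had 1476, 879 and 1229 CPM in ZEB1-KO clones, against 2193, 1205 and 1258 CPM in WT clones. RCAN1, an inhibitor of calcineurin, had 176, 121 and 211 CPM in ZEB1-KO clones, against 172, 508 and 617 CPM in WT clones. WT replicate 1 was the high clone in SOD1, whereas in RCAN1 it lay with the ZEB1-KO clones, and the log2 fold changes were -0.38 and -1.35. CXADR, an epithelial adhesion protein and virus receptor, was the other way round, at 51.6, 33.5 and 68.1 CPM in ZEB1-KO clones, against 41.6, 14.1 and 13.005 CPM in WT clones. Its log2 fold change was 1.16 and 1.93 without WT replicate 1, with WT replicate 1 inside the ZEB1-KO range. Within the hand list the other extremes were HSF2BP at -2.18 ± 0.85, PDE9A at -1.98 ± 0.66 and ICOSLG at 1.3 ± 0.38 (SE). Their levels were low. HSF2BP had 0.549, 0.667 and 1.43 CPM in ZEB1-KO clones, against 7.08, 0.463 and 4.54 CPM in WT clones, with overlap. PDE9A had 0.649, 0.148 and 0.405 CPM in ZEB1-KO clones, against 2.54, 0.709 and 1.296 CPM in WT clones. ICOSLG had 1.996, 2.42 and 1.56 CPM in ZEB1-KO clones, against 0.985, 0.617 and 0.81 CPM in WT clones. Without WT replicate 1 the log2 fold changes were -1.45 for HSF2BP and -1.35 for PDE9A.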

How the data were processed

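The 6 libraries were made with SMART-Seq2 from oligo(dT)-primed cDNA, without strand or molecular identifiers, per the labels' protocols. Raw counts of 26334 gene symbols were deposited. For 11013 of these genes the authors also deposited TPM values and an edgeR table, which holds the log2 fold change, the score of a likelihood ratio test and its p-value with and without adjustment, per the file headers. The tools in the submitters' processing notes are TopHat2 (2.1.0), HTSeq (version 0.6.1) and edgeR (version 3.2.2), and the builds hg19 and GRCh37.

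The deposited counts (18909305 to 42876693 per library) entered edgeR (4.0.16, under R 4.3.3). Genes passing filterByExpr (minimum count 10, total 15) were scaled with TMM and tested two-sided with the quasi-likelihood test, group alone, with Benjamini-Hochberg adjustment over 13659 genes and called at 0.05, from 4 residual plus 4.35 prior degrees of freedom. CPM uses scaled library sizes, and SEs were derived from the F statistic. Libraries are separate clones, so p-values measure the spread between libraries, in which clone, culture and preparation are joined. Floors of 3 counts cover counting error only. The lowest chi-square per gene between a pair of libraries was 117, so no library repeated another. The steps were tried on simulated data.

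The 60 genes, their groups by role, the other lists and the tests were chosen with earlier results of these data known. Values in every sample are given for the 4 receptor chains, the 10 genes of highest mean CPM, and the 8 with the lowest and 4 with the highest log2 fold change. They are also shown for the first and last tested gene in the map order given. BACH1, RRP1B, CBR1, PIGP, SYNJ1 and APP were added after their values were seen. Outside the 60, the 4 of highest mean CPM and 2 at each end of the fold changes within the hand list were named. Chromosomes came from RefSeq, which matched 25172 symbols (95.6%) and placed all 60 on chromosome 21; the map order given for them is that of RefSeq for 50 of the 60.

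Alternatives were other scaling factors, other filters, DESeq2 1.42.0, the likelihood ratio test, limma-voom and limma 3.58.1 on the deposited TPM in log2 (1 or 0.1 added), other pseudocounts than 0.5 CPM, the replicate number as a block, and leaving out each library. Comparison with WT replicates 2 and 3, the likelihood ratio test without WT replicate 1 and the count of genes highest in 1 library under other scalings were added after seeing the data.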

Additional observations from a re-analysis of the deposited data

How the results depend on the processing

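The median log2 fold change of the 59 genes relative to all genes stayed below 0 under all 19 alternatives run. Leaving out 1 library at a time it lay between -0.47 (without WT replicate 2) and -0.093 (without WT replicate 1), and the quasi-likelihood test called 0 of the 59. The number of genes below 0 lay between 34 (without WT replicate 1, against 48.3% of all genes) and 53. The number with all ZEB1-KO values below all WT values ran from 11 (without WT replicate 1, against 18.4% of all genes) to 23 (without WT replicate 2, against 14.7%). Of the 59, DESeq2 called 6, all lower, among 2.78% of the genes with an adjusted p. The likelihood ratio test called 3, among 1.76% of all genes called lower, and without WT replicate 1 it called 1, among 2.19%. Of the 52 other chromosome 21 genes, the likelihood ratio test on all libraries called 2, among the same 1.76%. On log2 of the deposited TPM, 31 of 58 genes were below 0 with 1 added, 30 of 58 with 0.1 added and 31 of 59 without a filter, while 29.2 to 29.5% of all genes were. The number without overlap was 5 each time, against 4.80% of all genes with 1 added and 4.78% without a filter. With library size alone as scaling, which moved the median of all genes to 0.14, the number without overlap was 7, against 7.51% of all genes. Relative levels set against WT replicates 2 and 3 were -0.026, -0.12 and -0.048 in ZEB1-KO replicates 1, 2 and 3. WT replicate 1 was the highest library for 46 to 49 of the 59 genes under the 4 other scalings. The causes of these differences were not tested.

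Over the 13659 genes tested, 24 were called, against 935 of 13135 by DESeq2, 617 of 13659 by the likelihood ratio test, 134 without a filter, 101, 94 and 80 on the TPM scale, and 5 to 25 with 1 library left out. With the replicate number as a block, 20 genes were called, none of the 59, and 47 of the 59 were below 0 with a relative median of -0.27. Correlations of same-numbered deviations were 0.022, 0.0071 and 0.22, and those of differently numbered clones ran from -0.12 to 0.10. Not every clone correlated best with its own number, but the highest value was that of the clones numbered 3. With 3 clones a group, these values cannot tell whether the numbers pair the clones. Of 494 refits of 26 named genes, 38 had the other sign, mostly in NRIP1, IFNAR1, CCT8, IL10RB and MCM3AP. With 3 clones a group, differences that are small beside the spread between clones can be missed, and no detection limit was computed.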

Other observations

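WT replicate 1 also stood apart on 2 other chromosomes, in opposite directions: genes of chromosome 10, which holds ZEB1, had a relative level of 0.43 there and genes of chromosome 6 of -0.47. WT replicate 1 was the highest library for 42.2% of the tested genes of chromosome 10 and for 4.07% of those of chromosome 6, against 14.0% of all genes tested. Outside WT replicate 1, the chromosome medians farthest from 0 apart from chromosome 21 were -0.39 for chromosome 13 in ZEB1-KO replicate 3 and 0.32 for chromosome 19 in ZEB1-KO replicate 2.

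Among the ZEB1-KO clones, replicate 2 was the lowest library for 23 of the 59 chromosome 21 genes (39.0%), against 21.01% of all genes tested, and replicates 1 and 3 for 7 each. Among WT clones, replicate 2 was the lowest for 17 of the 59 (28.8%), against 18.2% of all genes.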
